A study of Arabidopsis thaliana with 72 samples.

Results

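The tau and phi glutathione transferases of *Arabidopsis thaliana* were followed in leaves in which an estradiol-inducible construct closes plasmodesmata, the channels between neighbouring plant cells. Members were all genes whose symbol is GSTU or GSTF followed by a number, which gave 41 of the 33602 genes in the count table, 28 of the tau class (GSTU1 to GSTU28) and 13 of the phi class (GSTF2 to GSTF14). Leaves came from wild-type Col-0 and from the lines LexA::icals3m (icals3m) and LexA::PD-Plug (PD-plug), all grown on plates for 5 weeks with 10 h of light at 22 °C. They were painted with 20 µM β-estradiol 17-acetate or with 0.1% DMSO as the mock, both with the wetting agent Silwet L-77 at 0.01%, and were taken 12, 24, 48 or 72 h later. Each of the 24 groups had 3 biological replicates, and each sample pooled 2 leaves from 4 plants, so that p-values measure the spread between such pools. Col-0 carries neither construct and therefore shows the response to estradiol itself, relative to the mock paint. No DMSO content is recorded for the estradiol paint, and there was no unpainted group. A fall with estradiol and a rise with the mock therefore cannot be told apart. Falls and rises with estradiol are given relative to DMSO. How many transformation events stand behind each line is not given in the sources used here.

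Glutathione transferases join the tripeptide glutathione to reactive or toxic molecules, which are then moved into the vacuole. The tau and phi classes belong to plants and are induced by herbicides, safeners, oxidised lipids, salicylic acid and other stresses. TGA factors, which bind the DNA letters TGACG in as-1-like promoter elements, are known regulators of several of them. Other members work in specialised metabolism: GSTF6 in the synthesis of the phytoalexin camalexin, GSTF12 in anthocyanin transport, and GSTF9, GSTF10, GSTF11 and GSTU20 alongside glucosinolate synthesis.

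In the RefSeq annotation of build TAIR10.1, 27 of the 41 genes lay in 8 tandem arrays with at most 1 other gene between neighbours, and 14 stood alone. The largest array held GSTU1 to GSTU7, 7 genes on chromosome 2 from position 12617936 to 12632538, all on the minus strand. GSTU19 to GSTU23 formed an array of 5 on chromosome 1, GSTF4 to GSTF7 an array of 4 and GSTU24 to GSTU26 an array of 3, also on chromosome 1. Coding sequences of a pair of tau genes were identical at a median of 55.1% of positions, and of a pair of phi genes at 52.6%. The closest pairs were GSTF2 and GSTF3 (94.5%), GSTF6 and GSTF7 (94.3%) and GSTU1 and GSTU2 (85.5%). Reads could be split between such near-identical genes, and the gene models of GSTU17 and GSTU18 overlap, so values for these genes are uncertain to that extent.

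TGACG was searched on both strands from 250 bases before to 50 bases after each gene's start. It occurred at least 1 time in 17 of the 41 members (41.5%) and in 23.1% of 27443 protein-coding genes. It occurred at least 2 times in 3 members, GSTU1, GSTU7 and GSTU9, against 4.0% of all these genes. The W-box letters TTGACC or TTGACT, bound by WRKY factors and sharing TGAC with that motif, occurred at least 1 time in 21 members (51.2%) and in 32.4% of all these genes, and at least 2 times in 7 members (17.1%) and in 7.6%. The 250 bases upstream of 4 members that fell with estradiol are shown, 5′ to 3′ on the gene's strand, with each TGACG or its reverse complement CGTCA in capitals. Overlapping matches were counted as 1, with only the first in capitals. GSTU1, GSTU7 and GSTU9 hold separate matches, the later of those in GSTU7 runs on into an overlapping CGTCA, and GSTU25 holds a single match.
GSTU1 (TAIR10.1, chr2:12632539-12632788, minus strand): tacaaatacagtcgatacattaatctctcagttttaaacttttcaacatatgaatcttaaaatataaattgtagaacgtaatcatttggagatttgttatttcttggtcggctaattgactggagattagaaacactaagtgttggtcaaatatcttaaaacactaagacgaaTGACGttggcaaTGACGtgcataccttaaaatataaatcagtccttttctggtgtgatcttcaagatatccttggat
GSTU7 (TAIR10.1, chr2:12618900-12619149, minus strand): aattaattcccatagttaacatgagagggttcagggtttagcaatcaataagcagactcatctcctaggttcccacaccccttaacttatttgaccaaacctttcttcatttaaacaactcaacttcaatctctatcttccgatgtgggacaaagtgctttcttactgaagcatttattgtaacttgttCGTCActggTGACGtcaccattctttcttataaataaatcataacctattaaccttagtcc
GSTU9 (TAIR10.1, chr5:25089627-25089876, minus strand): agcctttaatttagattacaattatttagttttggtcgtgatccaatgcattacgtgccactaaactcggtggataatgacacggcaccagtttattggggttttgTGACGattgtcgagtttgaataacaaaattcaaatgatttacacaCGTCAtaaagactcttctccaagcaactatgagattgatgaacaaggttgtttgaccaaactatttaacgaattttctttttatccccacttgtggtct
GSTU25 (TAIR10.1, chr1:5871774-5872023, plus strand): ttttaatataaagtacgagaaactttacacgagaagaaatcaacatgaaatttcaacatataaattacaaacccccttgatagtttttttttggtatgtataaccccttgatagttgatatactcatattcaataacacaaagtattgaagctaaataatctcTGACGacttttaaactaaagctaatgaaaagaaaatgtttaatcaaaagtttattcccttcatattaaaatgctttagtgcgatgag

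Totals ran from 33207020 to 55367880 expected counts per library, with a median of 47474144, and levels are given as CPM, counts scaled to the TMM-adjusted library total. PD-plug 48 h estradiol replicate 1 had the fewest counts, and its total was 1.37 times that in the second deposited matrix, while this ratio was 1.90 to 2.07 in the other 71 libraries. Leaf markers (RBCS-1A, RCA, LHCB1.3, LHCB2.1 and PSBP1) summed to 13751 to 59554 CPM in every library. Root markers (BGLU23, PRP3, EXPA7, CASP1, CASP2 and ABCG6) summed to 0.306 to 12.4 CPM, with EXPA7 at 0 in all 72 libraries and CASP1 at 0 in 71.

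After the filter on low counts, 36 of the 41 members were tested among 21241 genes. GSTU14, GSTU15, GSTU21, GSTF13 and GSTF14 were not tested: none had more than 8 counts in a library, and GSTF14 had 0 in all 72. Per kilobase of transcript, GSTU19, which conjugates herbicides and other foreign compounds, had the highest mean level over all libraries (614 CPM per kb). GSTF9 (394 CPM per kb) and GSTF2, which also binds small ligands such as camalexin (344 CPM per kb), came next. GSTU20 (137), GSTF10 (130), GSTU24 (112) and GSTU5 (110 CPM per kb) followed, and the order of these 7 genes is only partly resolved, since levels varied widely between groups. GSTF2, for example, ranged from 39.3 to 2278 CPM over the libraries and GSTU19 from 364 to 1541 CPM. GSTU19 lay above the highest libraries of GSTU20 (336 CPM) and GSTU5 (275 CPM), which have longer transcripts, in every library. At the other end, GSTU12 averaged 0.0634 CPM per kb and was at 0 in 49 libraries.

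The members' RNA was most abundant in the 12 h mock samples and was much lower at that time with estradiol. In Col-0 at 12 h the 41 genes together reached 7681, 7359 and 8750 CPM in the 3 DMSO libraries and 3131, 2965 and 3443 CPM in the 3 estradiol libraries. The groups did not overlap, and the mean went from 7930 ± 728 CPM with DMSO to 3180 ± 242 CPM with estradiol (SD, n = 3). In bulk leaves, fewer cells of a type and less RNA per cell cannot be told apart. At 24 h the sums were 2867 ± 304 CPM with DMSO and 2294 ± 134 CPM with estradiol, and every DMSO library lay above every estradiol library. At 72 h they were 2507 ± 516 and 2225 ± 226 CPM, and the libraries overlapped. At 48 h they were 2808 ± 512 CPM with DMSO and 1995 ± 216 CPM with estradiol, and the groups overlapped because DMSO replicate 2 (2229 CPM) lay below the highest estradiol library (2245 CPM).

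**Figure D1:**
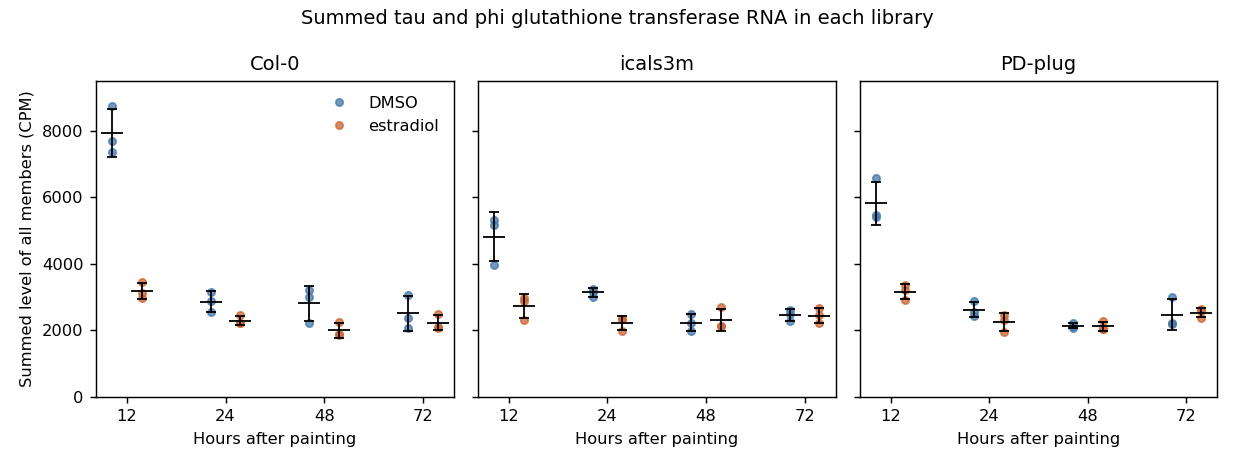
Summed level of the 41 genes (y axis, CPM) in each library by hours after painting (x axis), with 1 panel per genotype. Points are libraries, black dashes are means and bars are SD (n = 3). The 12 h DMSO libraries of Col-0, at 7359 to 8750 CPM, are the highest, and the 12 h estradiol libraries of the 3 genotypes lie between 2325 and 3443 CPM.

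In Col-0 at 12 h, 20 of the 36 tested members were lower and 4 higher with estradiol than with DMSO. The test was the quasi-likelihood test of edgeR, with p-values adjusted by Benjamini-Hochberg over all genes. Of all genes tested, 16.7% were lower and 21.9% were higher, 38.6% in all. The members' median log2 fold change was -1.38, against 0.07 for all genes. Among tau genes 15 of 25 fell and 4 rose, and among phi genes 5 of 11 fell and 0 rose. The number called, with each library left out in turn, lay between 21 and 25.

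GSTF6, the camalexin enzyme, stood at 828, 593 and 811 CPM with DMSO and at 104, 98.4 and 111 CPM with estradiol. The groups did not overlap, and GSTF6 fell by 2.83 on the log2 scale (SE 0.45, adjusted p = 1.47e-06). Its near-identical neighbour GSTF7 fell by 2.87 (SE 0.41, adjusted p = 1.13e-07). GSTU24, which with GSTU25 can conjugate the explosive TNT, stood at 662, 684 and 924 CPM with DMSO and at 75.4, 69.8 and 115 CPM with estradiol, again without overlap. GSTU24 fell by 3.13 (SE 0.57, adjusted p = 1.57e-05) and GSTU25 by 3.39 (SE 0.59, adjusted p = 6.24e-06). GSTF6, GSTF7, GSTU24 and GSTU19 are named here by a choice made after their values were seen. GSTU19 went from 1304, 1220 and 1541 CPM to 382, 364 and 453 CPM, all estradiol libraries below all DMSO libraries, and fell by 1.76 (SE 0.17, adjusted p = 8.08e-12).

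GSTU1 and GSTU7, at opposite ends of the chromosome 2 array, were also lower. GSTU1 went from 105, 110 and 131 CPM with DMSO to 17.1, 29.2 and 29.96 CPM with estradiol and fell by 2.18 (SE 0.36, adjusted p = 2.95e-06). GSTU7 went from 136, 105 and 134 CPM to 51.3, 61.9 and 65.4 CPM and fell by 1.06 (SE 0.27, adjusted p = 0.00136). In neither gene did the groups overlap.

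The furthest falls were in genes of low level. GSTU3 stood at 21.3, 5.87 and 14.2 CPM with DMSO and at 0.303, 0.218 and 1.15 CPM with estradiol, and fell by 4.60 (SE 1.42, adjusted p = 0.00782). GSTU11 stood at 9.79, 11.1 and 11.6 CPM with DMSO and at 0.953, 0.218 and 0.860 CPM with estradiol, and fell by 4.0 (SE 0.94, adjusted p = 0.000494). GSTU6 was at or below 1.24 CPM in these 6 libraries and fell by 3.59 (SE 0.66, adjusted p = 1.23e-05). In all of these the 3 estradiol libraries lay below the 3 DMSO libraries.

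The 4 members that rose in Col-0 at 12 h did so by less than 2-fold. GSTU18 stood at 43.4, 34.1 and 30.6 CPM with DMSO and at 56.1, 53.4 and 50.6 CPM with estradiol, without overlap, and rose by 0.57 on the log2 scale (SE 0.11, adjusted p = 1.62e-05). GSTU27 rose by 0.67 (SE 0.12, adjusted p = 9.11e-06) and GSTU16 by 0.34 (SE 0.10, adjusted p = 0.00410). GSTU20, which binds the jasmonate-conjugating enzyme JAR1, rose by 0.67 (SE 0.26, adjusted p = 0.0366). Its groups overlapped, at 8.37, 10.7 and 9.67 CPM with DMSO and 19.8, 9.46 and 16.8 CPM with estradiol, and the call was lost in 4 of the 6 leave-one-out fits (adjusted p = 0.118 without DMSO replicate 1, 0.0808 without DMSO replicate 3, 0.232 without estradiol replicate 1 and 0.107 without estradiol replicate 3).

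Both lines fell as well at 12 h, and 13 members were lower in each of the 3 genotypes: GSTF6, GSTF7, GSTF9, GSTF10, GSTU1, GSTU6, GSTU8, GSTU9, GSTU11, GSTU17, GSTU19, GSTU24 and GSTU25. The share of all genes lower in all 3 genotypes was not computed, so this overlap cannot be weighed against it. In icals3m 14 members were lower and 1 higher (8.7% and 8.46% of all genes), with a median log2 fold change of -0.66 against 0.02 for all genes. In PD-plug 17 were lower and 1 higher (14.5% and 12.6% of all genes), with a median of -0.80 against 0.02. GSTU27 was the member that rose, by 0.49 (SE 0.12, adjusted p = 0.00226) in icals3m and by 0.45 (SE 0.12, adjusted p = 0.00277) in PD-plug. Of the 20 members that fell in Col-0 at 12 h, 11 hold TGACG in the window searched, including the 3 with at least 2 matches, against 5 of the other 16 tested. The W-box was held by 12 of the 20 and by 7 of the other 16. A link between either motif and the falls was not tested.

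Leaf and root markers moved at the same time. In Col-0 at 12 h the summed leaf markers were 19401 to 20786 CPM with estradiol and 16712 to 17875 CPM with DMSO, and 3 of 5 were called higher. The summed root markers were 1.21 to 1.84 CPM with estradiol and 0.306 to 0.572 CPM with DMSO, and 1 of the 3 tested was called higher. Their part in the members' change was not tested.

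**Figure D2:**
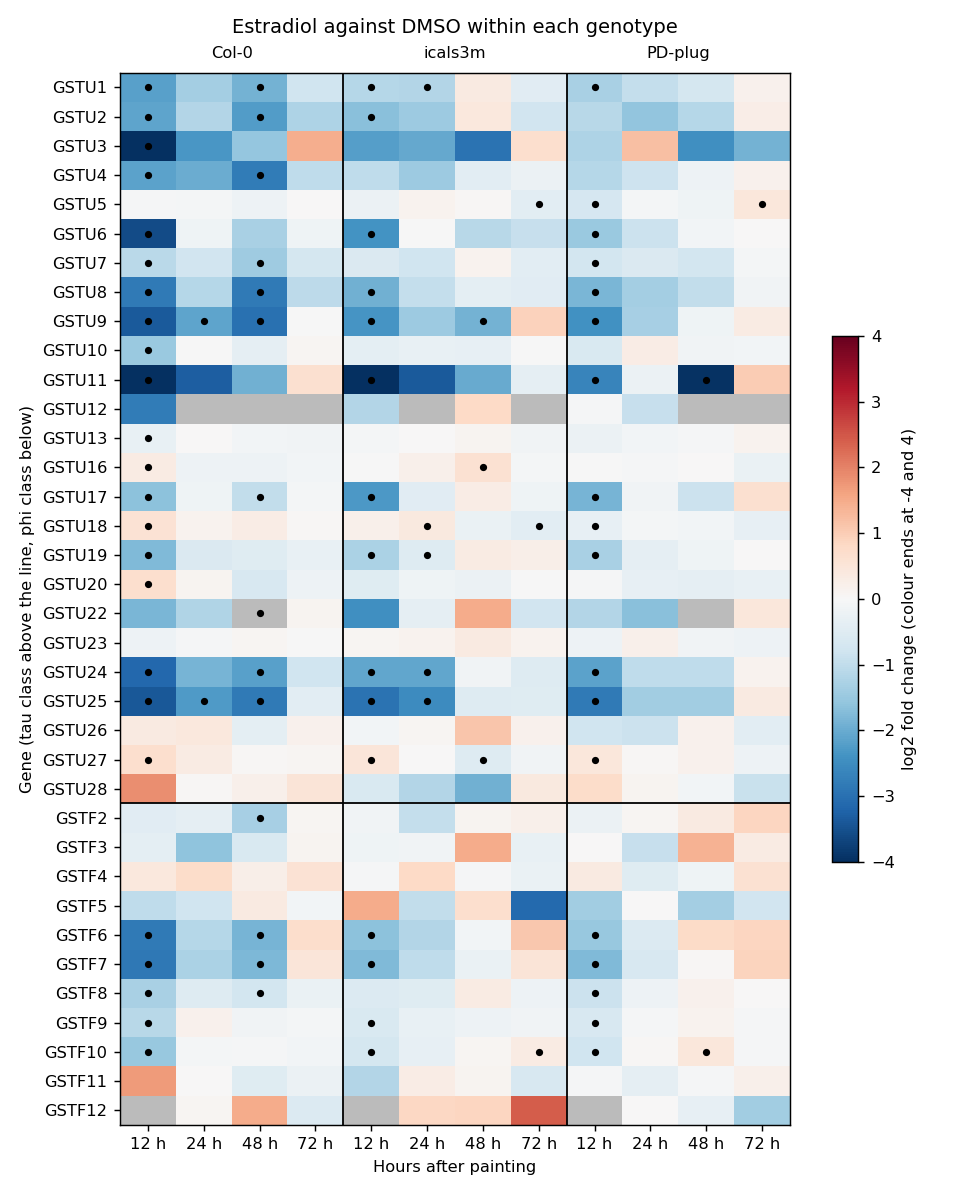
Log2 fold change of estradiol against DMSO (colour) for the 36 tested genes (down) in each genotype and time (across). Black dots mark adjusted p under 0.05 in edgeR's quasi-likelihood test, and grey cells are comparisons with a group at 0 counts in all 3 libraries. In Col-0, 27 of the 36 genes are below 0 at 12 h, 26 at 24 h and 29 at 48 h. Black dots are most frequent at 12 h in all genotypes and in Col-0 at 48 h, where 14 genes are called lower and 0 higher.

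In Col-0, fewer members passed at 24 h than at 12 h, more passed again at 48 h, and none passed at 72 h. At 24 h 2 of the 36 members were lower and 0 higher, where 0.852% and 0.132% of all genes were (0.984% together), with a median log2 fold change of -0.43 against 0.01 for all genes (-0.27 with members of a group at 0 counts put at a floor of 3 deposited counts per library). GSTU9 fell by 2.11 (SE 0.50, adjusted p = 0.0215), from 27.5, 29.0 and 20.3 CPM with DMSO to 7.13, 6.86 and 3.78 CPM with estradiol. GSTU25 fell by 2.26 (SE 0.60, adjusted p = 0.0437), and both groups of each gene were apart. The call count was 1 without DMSO replicate 3 and 0 without any of the other 5 libraries. It was 0 in the second deposited matrix and 6 by DESeq2.

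At 48 h in Col-0, 14 members were lower and 0 higher, where 4.19% of all genes were lower and 2.48% higher (6.67% together). The median log2 fold change was -0.69 (-0.63 at the floor) against 0.02 for all genes. Of these, 12 had also fallen at 12 h, and GSTF2 and GSTU22 had not, an overlap for which the share of all genes was not computed. GSTU1 stood at 46.5, 24.4 and 53.8 CPM with DMSO and at 13.5, 10.8 and 9.09 CPM with estradiol, without overlap, and fell by 1.90 (SE 0.37, adjusted p = 0.00126). GSTU7 stood at 56.8, 28.3 and 54.2 CPM with DMSO and at 18.3, 17.2 and 16.3 CPM with estradiol, also apart, and fell by 1.43 (SE 0.28, adjusted p = 0.00127). GSTU9 fell by 2.99 (SE 0.69, adjusted p = 0.00498) and GSTU25 by 2.83 (SE 0.64, adjusted p = 0.00450).

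The 48 h mock libraries of Col-0 were uneven in these genes. DMSO replicate 2 was the lowest of its 3 libraries in 22 of the 30 members with a mean of at least 1 CPM, while over 17301 genes of that level it was the lowest in 32.1%. Members also moved together in other groups. Col-0 72 h DMSO replicate 3 was the highest in 23 of 30 and PD-plug 72 h DMSO replicate 2 in 22, against 35.3% and 33.1% of the 17301 genes. In PD-plug 48 h DMSO no library was lowest or highest in more than 13. GSTF6 stood at 46.6, 12.7 and 70.0 CPM with DMSO and at 12.2, 11.1 and 12.2 CPM with estradiol. GSTF2 stood at 258, 70.9 and 293 CPM with DMSO and at 89.1, 74.4 and 83.9 CPM with estradiol, so that DMSO replicate 2 lay just above the estradiol libraries for GSTF6 and below them for GSTF2. Without that library 16 members were called. The count was 8 without DMSO replicate 1, 4 without DMSO replicate 3, 9 without estradiol replicate 2 and 8 without estradiol replicate 3, and it was 9 in the second deposited matrix. Summed leaf markers were 49772 to 52189 CPM with estradiol and 40365 to 43685 CPM with DMSO, with 2 of 5 called higher, and their part was not tested.

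**Figure D3:**
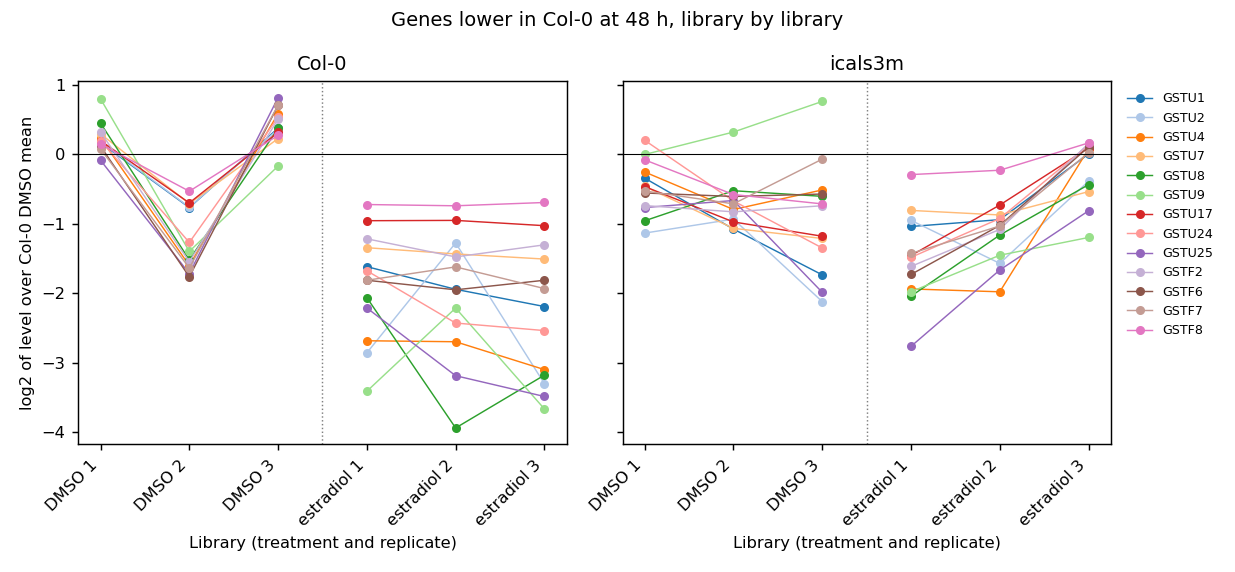
Level of 13 genes called lower in Col-0 at 48 h (GSTU22, at 0 with estradiol, is left out), as log2 of the level over the Col-0 DMSO mean (y axis), in each Col-0 and icals3m library (x axis). Lines only join points of the same gene. Most genes dip together in Col-0 DMSO replicate 2, where 22 of 30 members were lowest, and most are highest among the icals3m estradiol libraries in replicate 3.

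At 72 h in Col-0, 0 of the 36 members passed, where 0.0141% of all genes did, with a median log2 fold change of -0.08. By an unadjusted p under 0.05 there were 3, and DESeq2 also called 0. GSTF6 stood at 11.4, 6.07 and 19.7 CPM with DMSO and 18.0, 25.5 and 17.3 CPM with estradiol, with overlap.

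Within the lines the later times gave few calls. In icals3m, 4 members were lower and 1 higher at 24 h (3.73% and 2.74% of all genes, 6.48% together), 2 lower and 1 higher at 48 h (9.06% and 9.25%) and 2 lower and 1 higher at 72 h (11.1% and 10.4%). The 24 h calls were GSTU25 (-2.50), GSTU24 (-2.09), GSTU1 (-1.17), GSTU19 (-0.52) and GSTU18 (0.38), all log2 fold changes. Their number was 3 without DMSO replicate 2, 2 without DMSO replicate 3 and 1 without estradiol replicate 1 or estradiol replicate 2. In PD-plug, 0 passed at 24 h (0.49% of all genes), with 8 at an unadjusted p under 0.05 and 0 by DESeq2. By that unadjusted p there were 13 in Col-0 and 17 in icals3m at 24 h. No share of all genes at that unadjusted p is given. In PD-plug 1 member was lower and 1 higher at 48 h (7.62% and 5.66%) and 0 lower and 1 higher at 72 h (1.25% and 1.39%). These were GSTU11 (-3.94) and GSTF10 (0.45) at 48 h and GSTU5 (0.45) at 72 h. GSTU11 lost its call without DMSO replicate 1, DMSO replicate 3, estradiol replicate 1 or estradiol replicate 3 and GSTU5 without estradiol replicate 2. Counted in either direction, 18.3% of all genes passed in icals3m at 48 h, 21.5% in icals3m at 72 h and 13.3% in PD-plug at 48 h.

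**Figure D4:**
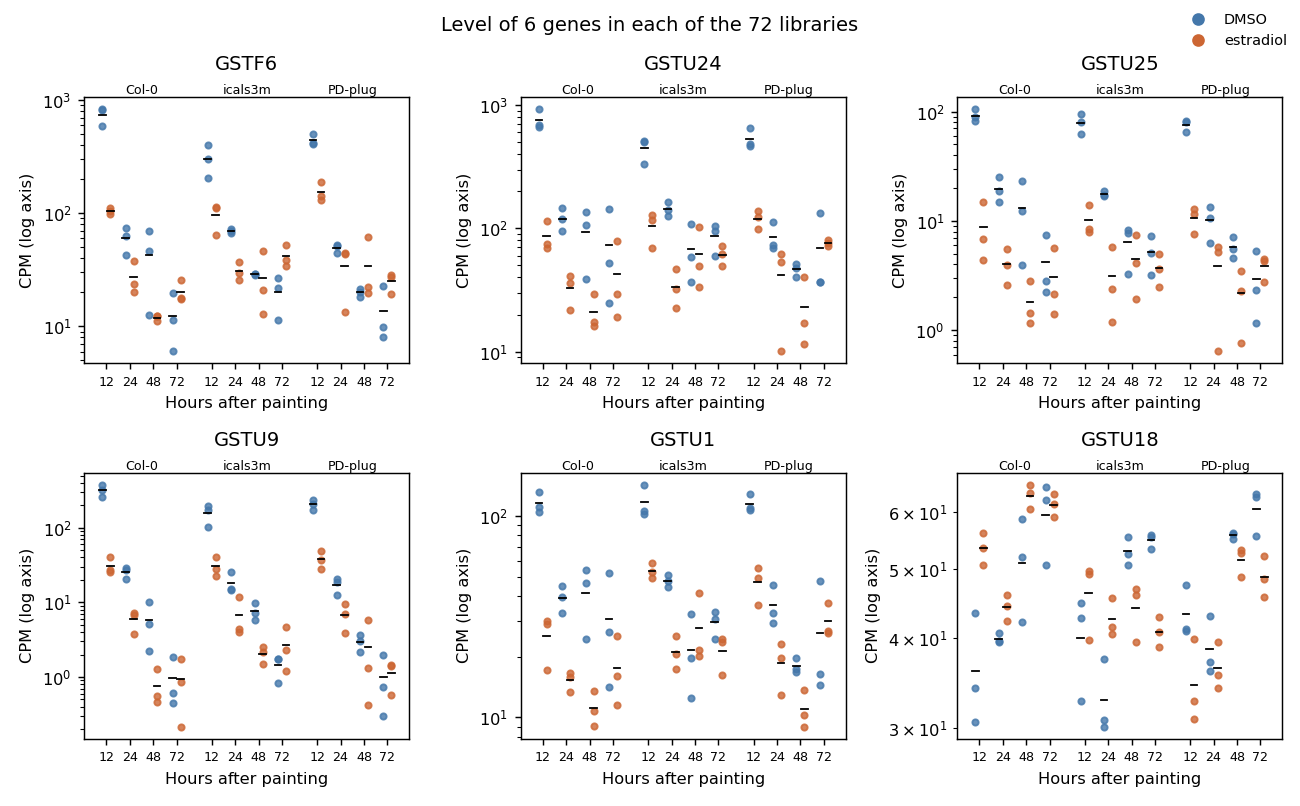
Level (y axis, CPM on a log axis) of 6 genes in each library by hours after painting (x axis), for Col-0, icals3m and PD-plug from left to right in each panel. Points are libraries (blue DMSO, orange estradiol) and black lines are means of 3. GSTF6, GSTU24, GSTU25, GSTU9 and GSTU1 are highest with DMSO at 12 h, and GSTU18 is the exception.

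The question of what each induced line adds was addressed by subtracting the Col-0 effect from that of the line. In these comparisons plasmodesmal closure cannot be told apart from other effects of the construct or of the line. These comparisons share the Col-0 libraries, so the values of the lines are given side by side and are not independent. At 12 h the members' falls were numerically smaller in the lines, with a median difference of 0.43 for icals3m and 0.44 for PD-plug (log2), against -0.02 and -0.01 for all genes. The summed DMSO level at 12 h was also lower in the lines, with means of 4816 CPM in icals3m and 5823 CPM in PD-plug against 7930 CPM in Col-0. With estradiol the means were 2732, 3161 and 3180 CPM. The part of the lower mock level in these differences was not tested. Few single members passed: 1 higher and 0 lower in icals3m (1.53% and 1.63% of all genes, 3.16% together), and 2 higher and 2 lower in PD-plug (2.11% and 6.19% of all genes, 8.3% together).

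GSTF10, also known as the dehydration-responsive gene ERD13, was that member in icals3m and one of those in PD-plug. It stood at 356, 521 and 543 CPM in Col-0 DMSO libraries, 343, 253 and 212 CPM in icals3m and 324, 270 and 312 CPM in PD-plug. With estradiol it stood at 174, 142 and 180 CPM in Col-0, 186, 142 and 169 CPM in icals3m and 192, 175 and 153 CPM in PD-plug. The estradiol libraries of the 3 genotypes thus overlapped, and the Col-0 DMSO libraries lay above those of both lines. GSTF10 fell by 1.52 (SE 0.12) in Col-0, by 0.70 (SE 0.12) in icals3m and by 0.80 (SE 0.12) in PD-plug, and the effects differed by 0.82 (SE 0.17, adjusted p = 0.00312) and 0.72 (SE 0.17, adjusted p = 0.00271). Both calls held in all 12 leave-one-out fits, and neither difference passed in the second deposited matrix. The number of members called in icals3m was 3 without Col-0 DMSO replicate 1, Col-0 estradiol replicate 2 or icals3m DMSO replicate 1, and 2 without Col-0 estradiol replicate 3 or icals3m estradiol replicate 1. GSTF9, its tandem neighbour, differed by 0.48 (SE 0.15, adjusted p = 0.0376) in PD-plug, and in the second matrix by -0.13 (adjusted p = 0.958), so its direction depends on the matrix used. Without the replicates in turn, GSTF9 kept its call in 4 of 12 fits.

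GSTU18 and GSTU5 went the other way in PD-plug at 12 h. GSTU18 stood at 41.2, 47.4 and 41 CPM with DMSO and 32.7, 39.9 and 30.8 CPM with estradiol, without overlap, and fell by 0.33 (SE 0.11) where it had risen in Col-0. The effects differed by -0.89 (SE 0.15, adjusted p = 4.12e-05). GSTU5 stood at 75.8, 74.4 and 71.7 CPM with DMSO and 38.7, 51.7 and 47.6 CPM with estradiol in PD-plug, and at 66.5, 55.7 and 67.6 CPM with DMSO and 64.6, 63.5 and 55.5 CPM with estradiol in Col-0. It fell by 0.68 (SE 0.11) in PD-plug and the groups were apart, while the Col-0 groups overlapped. The difference was -0.64 (SE 0.15, adjusted p = 0.00324), and both genes kept their call in all 12 leave-one-out fits. Summed leaf markers in PD-plug at 12 h were 13751 to 15851 CPM with estradiol and 17986 to 19491 CPM with DMSO. Within PD-plug 1 of the 5 was called higher and 2 lower. Of these markers 3 were below the Col-0 effect, and their part was not tested.

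At 24 h 0 members passed against Col-0 in icals3m (0.259% of all genes) and 0 in PD-plug (0.033% of all genes), with 2 in each at an unadjusted p under 0.05 and 0 and 0 by DESeq2. At 72 h 0 were higher and 2 lower in icals3m (4.98% and 6.29% of all genes), GSTU18 (-0.47, SE 0.15, adjusted p = 0.0291) and GSTU5 (-0.46, SE 0.15, adjusted p = 0.0330). In the second matrix GSTU18 did not pass (adjusted p = 0.331) and GSTU5 did (adjusted p = 0.00444). In icals3m at 72 h GSTU18 stood at 40.7, 42.8 and 38.9 CPM with estradiol and at 55.8, 55.4 and 53.3 CPM with DMSO, without overlap, and fell by 0.43 (SE 0.11, adjusted p = 0.00192). The Col-0 groups overlapped at that time, with GSTU18 at 61.5, 63.6 and 58.9 CPM with estradiol and 65.0, 62.4 and 50.6 CPM with DMSO. The number of members lower in icals3m was 0 without Col-0 estradiol replicate 2 or icals3m estradiol replicate 1, and 1 in 7 of the other 10 leave-one-out fits. In icals3m at 72 h 4 of 5 leaf markers were also below the Col-0 effect, and their part was not tested. In PD-plug 0 passed at 72 h (0.0942% of all genes), with 4 at an unadjusted p under 0.05 and 0 by DESeq2.

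At 48 h 13 of the 36 members differed from Col-0 in icals3m and 4 in PD-plug, numbers that fell to 6 without icals3m estradiol replicate 3 and to 0 without PD-plug estradiol replicate 1. In icals3m 11 members were above the Col-0 effect and 2 below, where 6.26% and 7.11% of all genes were, with a median difference of 0.81 (0.70 with genes of a group at 0 counts put at the floor) against -0.01 for all genes. In PD-plug 4 were above and 0 below, where 2.26% and 3.3% of all genes were, with a median of 0.48 (0.38 at the floor) against -0.01. Of the 11 in icals3m, 9 had fallen in Col-0 at 48 h, and 1, GSTU16, had risen within icals3m. All 11 had a lower DMSO mean in icals3m than in Col-0, and for 1, GSTU19, the icals3m estradiol mean exceeded the Col-0 DMSO mean. Of the 4 in PD-plug all had fallen in Col-0, 0 had risen within PD-plug, and for 0 the estradiol mean exceeded the Col-0 DMSO mean. Shares of all genes for these overlaps were not computed, and the Col-0 effect enters both comparisons.

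**Figure D5:**
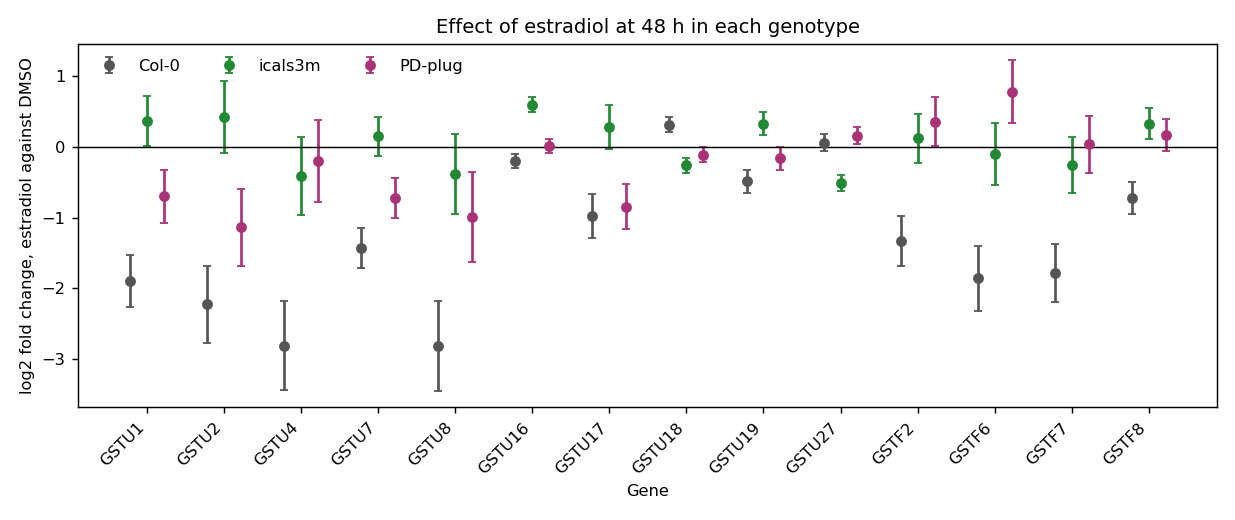
Log2 fold change of estradiol against DMSO at 48 h (y axis) in Col-0, icals3m and PD-plug for 14 genes that differed from the Col-0 effect in at least 1 line (x axis; GSTU22, with groups at 0 counts, is left out). Bars are SE of the fitted value. Col-0 is below 0 for most genes, as for GSTU1 at -1.90, where PD-plug is at -0.70.

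The array on chromosome 2 supplied 4 of the 11 genes in icals3m. GSTU1 stood at 20.2, 21.6 and 41.6 CPM with estradiol and at 32.7, 19.7 and 12.5 CPM with DMSO in icals3m, with overlap, and exceeded the effect in Col-0 by 2.26 (SE 0.52, adjusted p = 0.00162). GSTU7 stood at 26.5, 25.3 and 31.9 CPM with estradiol and at 33.6, 22.1 and 20.0 CPM with DMSO, and differed by 1.57 (SE 0.40, adjusted p = 0.00434). Both kept their call in all 12 leave-one-out fits, and GSTU1 lost it in the second matrix. GSTU2 differed by 2.65 (SE 0.74, adjusted p = 0.0110) and GSTU4 by 2.40 (SE 0.83, adjusted p = 0.0453). GSTU2 kept its call in all 12 leave-one-out fits and lost it in the second matrix (adjusted p = 0.0732). GSTU4 lost its call in 9 of the 12 leave-one-out fits and in 4 of 6 other settings. PD-plug values for GSTU1, 9.01, 13.7 and 10.2 CPM with estradiol and 16.8, 17.4 and 19.7 CPM with DMSO, did not overlap, yet neither the effect within PD-plug nor its difference from Col-0 passed.

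GSTU16 was the member that rose in icals3m at 48 h. It stood at 26.1, 35.2 and 35.2 CPM with estradiol and at 20.1, 23.0 and 20.6 CPM with DMSO, without overlap, and rose by 0.60 (SE 0.10, adjusted p = 7.67e-06). In Col-0 it stood at 30.2, 36.4 and 26.9 CPM with estradiol and at 37.7, 36.9 and 32.9 CPM with DMSO, with overlap. The effects differed by 0.80 (SE 0.14, adjusted p = 4.45e-05), and the call held in all 12 leave-one-out fits and in all 6 other settings.

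Other differences from Col-0 in icals3m at 48 h were GSTU8 (2.43, SE 0.85, adjusted p = 0.0460), GSTF2 (1.45, SE 0.49, adjusted p = 0.0403), GSTU17, the drought-responsive gene ERD9 (1.26, SE 0.44, adjusted p = 0.0449), GSTF8, known for its stress-inducible promoter (1.05, SE 0.31, adjusted p = 0.0184), and GSTU19 (0.82, SE 0.23, adjusted p = 0.0134). In leave-one-out fits GSTU8 and GSTF2 lost the call in 9 of 12, GSTU17 in 8, GSTF8 in 5 and GSTU19 in 3. GSTU8 and GSTU17 also lost it in 3 of 6 other settings, and GSTF2 in the second matrix (adjusted p = 0.0642). Below the Col-0 effect were GSTU18 (-0.57, SE 0.15, adjusted p = 0.00601) and GSTU27 (-0.57, SE 0.17, adjusted p = 0.0142). Neither passed in the second matrix (adjusted p = 0.168 for GSTU18 and 0.0832 for GSTU27). GSTU18 stood at 46.0, 46.8 and 39.5 CPM with estradiol and at 50.6, 52.5 and 55.4 CPM with DMSO in icals3m, all estradiol libraries below all DMSO libraries, a difference that did not pass by itself. GSTU27 fell within icals3m by 0.51 (SE 0.12, adjusted p = 0.00101), from 18.2, 24.0 and 20.6 CPM to 15.9, 14 and 14.2 CPM. Its groups were apart, in the opposite direction to its rise at 12 h.

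In icals3m at 48 h, estradiol replicate 3 was the highest of its group in 18 of 30 members, against 36.2% of 17301 genes. This is not particular to that group, since icals3m 12 h estradiol replicate 2, for example, was the lowest in 21 of 30, against 33.6%. The number called against Col-0 at 48 h went from 13 to 6 without icals3m 48 h estradiol replicate 3. That number was 7 without Col-0 DMSO replicate 1, Col-0 DMSO replicate 3, icals3m DMSO replicate 2 or icals3m DMSO replicate 3, and 5 in the second deposited matrix. Without the uneven Col-0 DMSO replicate 2 it was 17. Summed leaf markers in icals3m were 34233 to 38294 CPM with estradiol and 40665 to 42946 CPM with DMSO, with 1 of 5 called higher and 2 lower. Of these markers 4 were below the Col-0 effect in each line at 48 h. Their part was not tested.

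In PD-plug at 48 h, 3 of the 4 members that differed were phi genes. GSTF6 stood at 61.2, 22.3 and 19.7 CPM with estradiol and at 18.3, 20.3 and 21.2 CPM with DMSO, with overlap and with estradiol replicate 1 highest, and differed from the Col-0 effect by 2.63 (SE 0.64, adjusted p = 0.00661). GSTF7 differed by 1.82 (SE 0.57, adjusted p = 0.0474) and GSTF2 by 1.69 (SE 0.49, adjusted p = 0.0295). In leave-one-out fits GSTF7 lost the call in 9 of 12, GSTF2 in 7 and GSTF6 in 2, and GSTF7 also lost it in 4 of 6 other settings. GSTU22 passed as well (adjusted p = 0.00679 in PD-plug and 0.0128 in icals3m) at very low levels. It was at 0 in all 3 Col-0 estradiol libraries and at 0.539, 0.0740 and 0.976 CPM in the DMSO libraries (20, 3 and 36 counts). No fold is given, since counts are in excess at multiples of 4 and so few need not be separate reads. That fall lost its call in 5 of the 6 leave-one-out fits. In PD-plug it was at 0.439, 0 and 0 CPM with estradiol and at 0 in all 3 DMSO libraries, so that call rests on 14 counts in estradiol replicate 1. In icals3m it was at 0, 0.633 and 0.329 CPM with estradiol and at 0, 0.317 and 0 CPM with DMSO.

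PD-plug estradiol replicate 1 is the library with the lowest total, and without it 0 members passed against Col-0 at 48 h. The number was 1 without Col-0 DMSO replicate 3, and 2 without Col-0 DMSO replicate 1, Col-0 estradiol replicate 2, Col-0 estradiol replicate 3, PD-plug DMSO replicate 1 or PD-plug DMSO replicate 2. Without the uneven Col-0 DMSO replicate 2 it was 8, 7 above and 1 below. It was 2 in the second deposited matrix and 7 by DESeq2. Summed leaf markers in PD-plug were 37600 to 42026 CPM with estradiol and 42797 to 44086 CPM with DMSO.

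The lines were compared with each other by the difference of their effects, without Col-0. At 12 h 0 members passed (1.19% of all genes), with 2 at an unadjusted p under 0.05 and 1 by DESeq2. The number was 1 without PD-plug DMSO replicate 3, PD-plug estradiol replicate 2, icals3m DMSO replicate 3 or icals3m estradiol replicate 1. At 24 h 0 passed (0.358% of all genes), with 5 at an unadjusted p under 0.05 and 0 by DESeq2. At 48 h GSTU16 was 0.59 higher in icals3m (SE 0.14, adjusted p = 0.00638) and GSTU27 was lower, at -0.67 (SE 0.17, adjusted p = 0.00820), where 2.69% of all genes were higher and 2.46% lower. Without icals3m DMSO replicate 2 GSTU16 alone passed, as in the second matrix.

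At 72 h GSTU5 separated the lines. It stood at 144, 175 and 131 CPM with estradiol and 168, 199 and 241 CPM with DMSO in icals3m, and at 215, 275 and 247 CPM with estradiol and 183, 181 and 177 CPM with DMSO in PD-plug. The PD-plug groups were apart, with estradiol higher, and the icals3m groups overlapped at 1 library. GSTU5 fell by 0.43 in icals3m (SE 0.11, adjusted p = 0.00158) and rose by 0.45 in PD-plug (SE 0.11, adjusted p = 0.00938). The difference was -0.88 (SE 0.15, adjusted p = 6.30e-05), the call held in all 12 leave-one-out fits, and 3.11% of all genes were lower by this test.

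Without estradiol few members passed between the lines and Col-0 in the mean of the 4 times. At 12 h alone, which was not tested by itself, the summed DMSO level was lower in both lines. It was 3961 to 5306 CPM in icals3m and 5419 to 6570 CPM in PD-plug, and 7359 to 8750 CPM in Col-0, without overlap with Col-0. Over the mean of the 4 times, 1 member was higher and 3 lower in icals3m DMSO than in Col-0 DMSO (9.07% and 10.1% of all genes), and 1 was higher and 2 lower in PD-plug DMSO (3.56% and 2.61% of all genes). GSTU27 was higher by 0.24 and 0.27 in icals3m and PD-plug, GSTF10 lower at -0.25 and -0.23, GSTF9 lower at -0.21 and -0.20, and GSTU16 lower at -0.28 in icals3m, all log2 differences. The PD-plug number was 8 without Col-0 48 h DMSO replicate 2, 7 without PD-plug 72 h DMSO replicate 2 and 5 without Col-0 12 h DMSO replicate 2, Col-0 24 h DMSO replicate 3, Col-0 72 h DMSO replicate 2 or PD-plug 12 h DMSO replicate 3.

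In mock-painted Col-0 the members changed most between 12 and 24 h, when 20 of 36 fell and 10 rose, where 31.5% and 31.3% of all genes did. Hours after painting and hour of the day cannot be told apart for the 12 h samples. GSTF2 went from 2134, 2173 and 2278 CPM to 387, 268 and 254 CPM and fell by 2.86 (SE 0.37, adjusted p = 2.25e-09). GSTU20 went from 8.37, 10.7 and 9.67 CPM to 286, 266 and 184 CPM and rose by 4.67 (SE 0.29, adjusted p = 7.67e-20). GSTU17 rose by 4.53 (SE 0.35) and GSTF11 by 7.12 (SE 0.56), the latter from 0.0914, 0.136 and 0 CPM to 12.0, 10.4 and 9.34 CPM. GSTF12, the anthocyanin gene, was at 0 in all 12 h Col-0 libraries, stood at 0.660, 0.171 and 0.667 CPM in the 24 h DMSO libraries and was called higher there (adjusted p = 0.00358). From 24 to 48 h 4 rose and 3 fell (13.6% and 13.5% of all genes), and from 48 to 72 h 1 rose and 5 fell (5.59% and 7.24%), a number that was 3 without 48 h DMSO replicate 3. GSTU12, GSTF4 and GSTF5 passed in none of the 29 comparisons. GSTF3, GSTF11, GSTF12, GSTU23, GSTU26 and GSTU28 passed in none of those of treatment or of effects.

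Genes that work with these enzymes were followed as 4 lists of 38 genes in all, of which 37 were tested. The lists were chosen with earlier results of these data known, so their counts are descriptions and not independent support. The 13 detoxification partners are glycosyltransferases, vacuolar ABC transporters, OPR reductases and cytochrome P450s, with the small mitochondrial protein AT12CYS-2, and 13 of 13 were lower in Col-0 at 12 h (16.7% of all genes), with 5 lower at 24 h (0.852%), 11 lower at 48 h (4.19%) and none at 72 h. Against the Col-0 effect at 48 h, 11 of 13 were above in icals3m, where 6.26% of all genes were, with a median of 1.93 against -0.01 for all genes, among them UGT73B3 (2.87), OPR1 (2.74) and the transporter ABCC3 (1.93). Within icals3m at 48 h, however, 0 of 13 were higher and 1 lower (9.25% and 9.06% of all genes), with a median log2 fold change of 0.33. In icals3m DMSO 5 of 13 were lower than in Col-0 DMSO over the mean of the 4 times (10.1% of all genes). In PD-plug 2 of 13 were above, where 2.26% of all genes were, CYP81D8 (2.36) and UGT73B5 (1.51), with a median of 0.92. Within PD-plug at 48 h 0 of 13 were higher and 1 lower (5.66% and 7.62% of all genes), with a median of -0.62. No leave-one-out counts are given for the lists. Against the Col-0 effect 0 of 13 passed at 24 h (0.259% of all genes in icals3m, 0.033% in PD-plug). At 72 h 0 of 13 passed as well (11.3% in icals3m, 0.0942% in PD-plug). Within icals3m, however, 7 of 13 were lower at 24 h and 3 at 72 h (3.73% and 11.1% of all genes). Within PD-plug 1 was lower at 24 h and 0 at 72 h (0.334% and 1.25% of all genes).

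Among all genes, 6.26% were above and 7.11% below the effect of Col-0 in icals3m at 48 h, 2.26% were above it in PD-plug at 48 h, 1.53% were above it in icals3m at 12 h and 6.19% were below it in PD-plug at 12 h, and the counts of the next lists are to be read against these shares. Of the 6 tested genes of glutathione synthesis, reduction and breakdown, the glutathione synthetase GSH2 (0.57) and the reductase ATGR1 (1.09) were above the effect of Col-0 in icals3m at 48 h. At 12 h the rate-limiting GSH1 (0.59) and the breakdown enzyme GGT1 (0.85) were above it in icals3m, and the reductase EMB2360 (-0.31) was below it in PD-plug. Among 12 genes of the other transferase classes, DHAR2 (1.3) and GSTZ1 (1.13) were above and DHAR3 (-0.57) and GSTL2 (-0.33) below in icals3m at 48 h. DHAR3 (-0.53) was also below at 72 h, as 6.29% of all genes were. In PD-plug GSTZ1 (0.69) and GSTL1, which has a group at 0 counts (adjusted p = 0.0331), were above at 48 h. GSTL2 (-0.34), DHAR3 (-0.34), GSTT1 (-0.27) and GSTL3 (-0.23) were below in PD-plug at 12 h. With estradiol at 12 h, 7 of these 12 genes rose and 2 fell in Col-0 (21.9% and 16.7% of all genes). Within PD-plug 2 rose and 1 fell at 12 h (12.6% and 14.5% of all genes). Of 6 regulators, the factors anac032 (1.61) and NAC102 (1.02) and the TGA partner SCL14 (0.47) were above the effect of Col-0 in icals3m at 48 h. In PD-plug anac032 (0.84) and NAC102 (0.63) were above it.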

How the data were processed

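RNA was measured in 72 leaf libraries. The deposited matrix holds expected counts per gene, whole numbers that the authors did not normalise, on build TAIR10. Multiples of 4 are in excess (40727 values of 4, 8585 of 3 and 10399 of 5), so counts divided by 4 were tried. FastQC 0.11.8, Trim Galore 0.5.0, cutadapt 1.7, HISAT2 2.1.0, STAR 2.5, SAMtools 1.4.1 and StringTie 1.3.3 are named, with no role, per the submitters' processing notes. A second deposited matrix was an alternative.

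Genes passed edgeR's filterByExpr (minimum count 10, total 15), leaving 21241 of 33602. Counts were TMM-scaled and fitted as 24 group means with edgeR 4.0.16 (limma 3.58.1, R 4.3.3), by the quasi-likelihood test with Benjamini-Hochberg adjustment over all genes tested and a threshold of 0.05. Standard errors are the absolute log2 fold change over the square root of F. DESeq2 1.42.0 was an alternative. Member counts by DESeq2 or at an unadjusted p under 0.05 are given without the matching share of all genes, so they cannot be weighed against it. Fits leaving out 1 library kept the genes tested and the trended dispersion, edgeR's estimate of spread by level, of all 72 libraries. The script was tested on simulated data. Floors are 3 deposited counts and cover counting error only, and with the excess of multiples of 4 they may be too low. The members and lists were chosen with earlier results of these data known. Named were members that differed from the Col-0 effect and, per time, the 3 highest and 3 lowest calls in Col-0, with other members named after their values were seen. Promoters were read from the RefSeq genome of build TAIR10.1.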

Additional observations from a re-analysis of the deposited data

Results flagged for a closer look

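Each difference of estradiol effects between genotypes that passed edgeR's quasi-likelihood test is listed here as a log2 difference, and GSTU22, with groups at 0 counts, by its adjusted p. Comparisons with Col-0 share the Col-0 libraries.

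At 12 h GSTF10 differed by 0.82 between icals3m and Col-0 and by 0.72 between PD-plug and Col-0. In PD-plug at 12 h GSTF9 (0.48), GSTU5 (-0.64) and GSTU18 (-0.89) also differed from Col-0.

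At 48 h icals3m exceeded the Col-0 effect in GSTU2 (2.65), GSTU8 (2.43), GSTU4 (2.40), GSTU1 (2.26), GSTU7 (1.57), GSTF2 (1.45), GSTU17 (1.26), GSTF8 (1.05), GSTU19 (0.82), GSTU16 (0.80) and GSTU22 (adjusted p = 0.0128), and was below it in GSTU18 (-0.57) and GSTU27 (-0.57). PD-plug exceeded it in GSTF6 (2.63), GSTF7 (1.82), GSTF2 (1.69) and GSTU22 (adjusted p = 0.00679).

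At 72 h icals3m was below the Col-0 effect in GSTU18 (-0.47) and GSTU5 (-0.46). Between the lines, icals3m minus PD-plug, GSTU16 (0.59) and GSTU27 (-0.67) differed at 48 h and GSTU5 (-0.88) at 72 h.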

How the results depend on the processing

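The number of members past the threshold was recomputed for 29 comparisons. It moved by over 1.5 times in 10 with the second deposited matrix, 6 with DESeq2, 3 with the replicate block, 2 with no filter on low counts, 2 with counts divided by 4 and 0 with RLE size factors, and the cause was not tested. With the second matrix it went from 2 to 0 (Col-0 24 h), 14 to 9 (Col-0 48 h), 5 to 2 (icals3m 24 h), 3 to 1 (icals3m 72 h) and 2 to 0 (PD-plug 48 h). For effects minus Col-0 it went from 1 to 0 and from 13 to 5 (icals3m, 12 and 48 h) and from 4 to 2 (PD-plug, both times), and between the lines at 48 h from 2 to 1. With DESeq2 it was 6 (Col-0 24 h), 5 (icals3m 72 h), 4 (icals3m minus Col-0, 12 h), 7 (PD-plug minus Col-0, 48 h), 1 (between the lines, 12 h) and 6 (PD-plug DMSO against Col-0). With no filter it was 1 for Col-0 at 24 h and 1 for PD-plug at 48 h, and with counts divided by 4 it was 2 for icals3m minus Col-0 at 12 h and 5 for the PD-plug DMSO comparison. The difference of GSTF9 in PD-plug at 12 h reversed in the second matrix, to -0.13. Of 618 refits of 38 single-gene results, 476 kept direction and call, 141 lost the call and 1 reversed.

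Replicate numbers did not pair the libraries: over 12 comparisons the correlation of same-numbered deviations ran from -0.078 to 0.086. With the replicate block the number was 1 for Col-0 at 24 h, 1 for PD-plug at 48 h and 3 for icals3m minus Col-0 at 12 h.

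Leaving out each library in turn gave, for Col-0, 21 to 25 members at 12 h, 0 to 1 at 24 h, 4 to 16 at 48 h and 0 at 72 h. For icals3m it gave 12 to 16, 1 to 4, 2 to 4 and 2 to 4, and for PD-plug 15 to 18, 0, 1 to 2 and 0 to 1, at 12, 24, 48 and 72 h. Against Col-0 it gave 1 to 3, 0, 6 to 17 and 0 to 2 for icals3m and 3 to 4, 0, 0 to 8 and 0 for PD-plug. Between the lines it gave 0 to 1, 0, 1 to 3 and 1. For DMSO it gave 4 to 6 (icals3m), 3 to 8 (PD-plug), 28 to 30 (24 h against 12 h), 7 (48 h against 24 h) and 3 to 7 (72 h against 48 h). With 3 libraries a group, many of the 48 h counts change when 1 library is left out. These fits also have fewer libraries and keep the spread estimated from all of them. The part of this in the lost calls was not tested. A floor of 3 deposited counts is at most 0.0903 CPM, but counts are in excess at multiples of 4, so the limit of detection may be higher.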
